A study of Drosophila melanogaster with 12 samples.

Results

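The 2 ovary libraries labelled wde germline knockdown (wde GKD 1 and 2) were compared with the 2 young control libraries whose titles name NGVP16 (NGVP16 control 1 and 2), 4 of the 12 poly(A) mRNA libraries of a Drosophila melanogaster study. Libraries were taken by a rule on genotype label and title that used no measured value, though earlier results of these data were known. All genes that passed a filter on low counts were tested. The series' design text calls the knockdowns germline knockdowns and gives Nup154 GKD as a control for development. All 4 libraries came from ovaries dissected 1 to 3 days after eclosion. The labels do not spell out NGVP16, and they name neither the driver nor the RNAi construct nor any allele that the controls share with the knockdowns. The labels do not say whether replicates were separate crosses or dissections, and p-values here therefore reflect the spread of these libraries, possibly a technical spread.

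Windei (wde) is the cofactor of SETDB1, the enzyme encoded by egg that methylates lysine 9 of histone H3 and so marks genes for silencing. In the Drosophila germarium, stem cell daughters differentiate, 1 cell of each cyst becomes the oocyte, and somatic follicle cells enclose the cyst. As the egg chamber grows, the germ cells load the oocyte with maternal mRNA, and the follicle cells later make the vitelline membrane and the chorion of the eggshell. In the ovary the silencing pathway is known for keeping testis genes and genes of early germ cells off.

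Total counts were 10242055 and 10365789 in wde GKD and 8155977 and 11609262 in the NGVP16 pair. After a filter on low counts 10790 genes were tested with edgeR's quasi-likelihood F test, whose Benjamini-Hochberg adjusted p-values are the only adjusted p-values given here. A gene was called at an adjusted p under 0.05, and "kept" means called in the same direction in the full fit and in each of the 4 fits that left out 1 of these 4 libraries. Levels are counts scaled to library size (CPM) after TMM normalization, given in the order wde GKD 1, wde GKD 2, NGVP16 control 1, NGVP16 control 2. Log2 fold changes (wde GKD over NGVP16) carry a standard error. The control libraries stood apart from each other: cytoplasmic ribosomal protein genes took 24.6% of the counts of NGVP16 control 1 and 9.67% of control 2, against 7.8% and 9.56% in wde GKD 1 and 2. Among genes with at least 10 CPM in the higher library, 343 of 6888 (4.98%) differed over 4-fold between the control libraries, and 217 of 7283 (2.98%) between the wde GKD libraries, with 4.65% in the SETDB1 GKD pair and 0.0143% in the Nup154 GKD pair of the series.

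The targeted gene was not lower beyond the spread of the controls. wde (FBgn0027499, chromosome 2R, 10800420 to 10808938, dm6) stood at 65.8, 83.5, 43.6 and 148 CPM. Both knockdown values lay between the control values, so the sets overlapped, and the log2 fold change was -0.36 ± 0.44 (adjusted p = 0.54, and 0.0128 to 0.948 over all settings tried). Against NGVP16 control 2 alone it was -0.87, and against NGVP16 control 1 alone it was 0.78, on opposite sides of 0 and each past the test (adjusted p = 0.0163 and 0.0277). Against the virgin control pair of the series, at 86.0 and 96.2 CPM, it was -0.29. The counts include somatic wde mRNA, and a change confined to the germ line was not measured apart. The names below are therefore those of the labels.

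The SETDB1 gene egg stood at 41.4, 42.7, 34.7 and 73.4 CPM, again between the control values (-0.36 ± 0.35, adjusted p = 0.433). It was -0.68 against NGVP16 control 2 alone and 0.29 against control 1 alone. The nucleoporin gene Nup154, the target of the series' developmental control knockdown, stood at 64.1, 97.9, 146 and 232 CPM, with no overlap. Its log2 fold change was -1.22 ± 0.33 (adjusted p = 0.0157), and the call ended without wde GKD 1 (adjusted p = 0.156, and 0.000366 to 0.565 over all settings). egg overlaps an antisense RNA gene and Nup154 overlaps Art8 on the opposite strand, and whether the counting used strand is not given in the sources used here.

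Across all genes, 1914 were higher in wde GKD (17.7% of those tested) and 1881 lower (17.4%), 3795 in all (35.2%). These counts depended on single libraries: 1559 were called without wde GKD 1, 2455 without wde GKD 2, 3420 without NGVP16 control 1 and 4782 without NGVP16 control 2. The kept genes numbered 964 higher (8.93%) and 452 lower (4.19%). All counts of called and kept members in the gene lists below are to be read beside these shares of all genes. Over all genes tested, the median log2 fold change was -0.011 with TMM scaling, 0.17 with DESeq2-style size factors and 0.75 when libraries were scaled to the ribosomal protein genes, and the share of called genes that were higher went from 50.4% to 63.3% and 93.0%. Removing the trend with exon length gave a median of -0.25 and 36.8% higher. Without the adult control pair of the series, 2150 genes were called higher and 1438 lower (59.9% higher), so the even split depended on that pair. The median exon length was 2404.5 bp in genes called higher, 1704 bp in genes called lower and 1919.5 bp in all genes tested. In these bulk samples, fewer cells of a type and less RNA per cell cannot be told apart.

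Most maternal and oocyte mRNAs fell. Of 32 tested genes of oocyte determination, axis formation and early embryogenesis, 28 fell, 0 rose and 22 falls were kept, beside 17.4% and 4.19% of all genes. The list median was -3.17, against -0.011 over all genes, and it was -3.09 against NGVP16 control 2 alone and -2.99 against control 1 alone. Summed, the list took 0.249% and 0.38% of the counts in wde GKD 1 and 2 and 1.35% and 1.98% in the controls.

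dhd, a thioredoxin of the egg, stood at 26.5, 67.9, 2154 and 1093 CPM (-5.10 ± 0.61, adjusted p = 0.000358). pgc, which represses transcription in the first germ cells of the embryo, stood at 1.80, 1.24, 146 and 74.4 CPM (-6.17 ± 0.58, adjusted p = 0.000154). In both genes the knockdown libraries lay far below either control. plu, which controls the early embryonic cell cycles, stood at 0.855, 0.796, 43.0 and 15.2 CPM (-5.12 ± 0.59), and exu, which is needed to place bicoid mRNA, at 18.4, 26.2, 527 and 319 CPM (-4.25 ± 0.36). osk, the organizer of germ plasm, stood at 81.5, 290, 1778 and 2621 CPM (-3.56 ± 0.53, adjusted p = 0.000925). Within the low pair, osk, dhd and the list as a whole were lower in wde GKD 1, with a median difference of -0.78 on the log2 scale between the 2 libraries. The list members that were not called were stau (-0.61), BicD (-0.59), grk (-0.44) and tud (0.48).

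**Figure D1:**
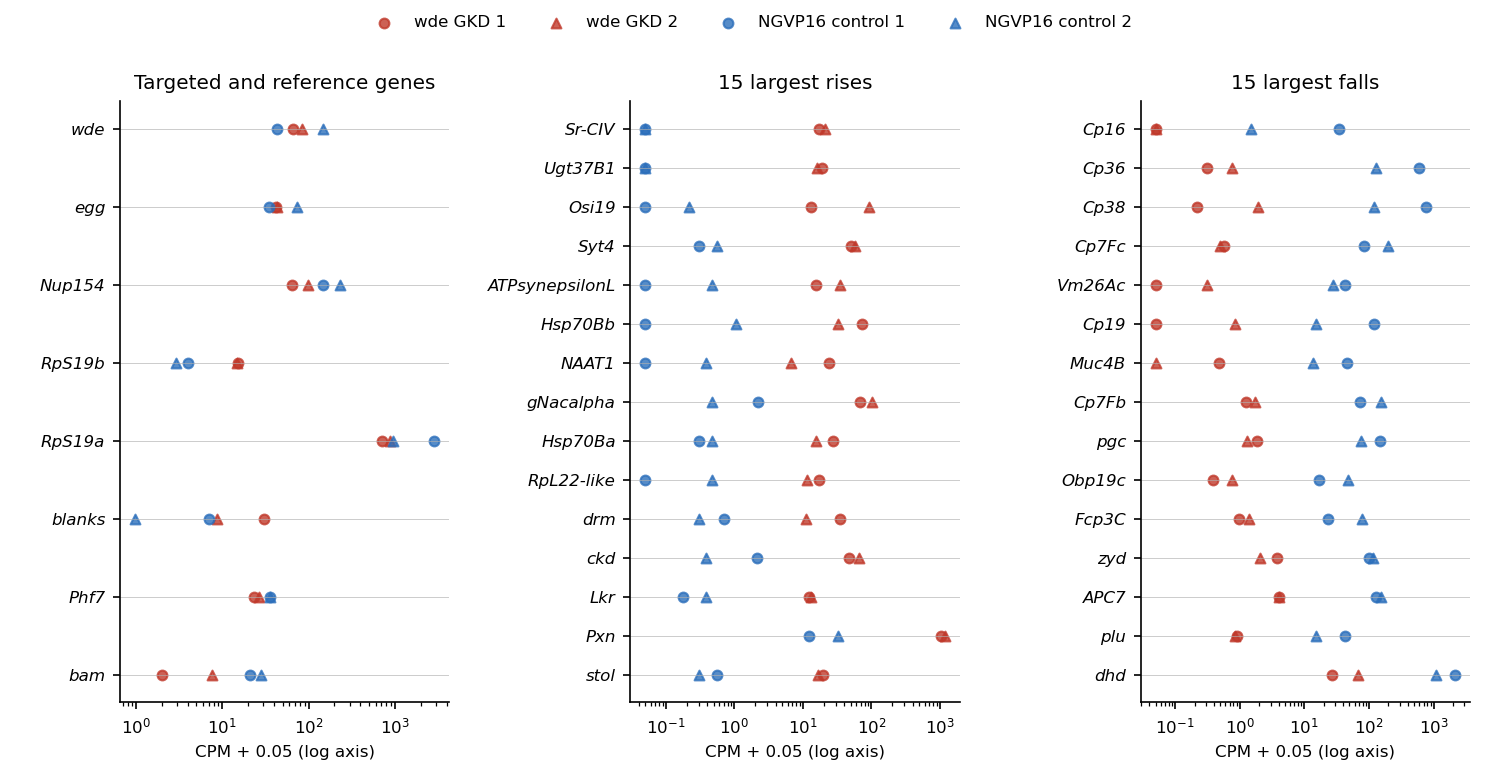
CPM plus 0.05 on a log axis in wde GKD 1 and 2 (red circles and triangles) and NGVP16 control 1 and 2 (blue circles and triangles), for 8 targeted and reference genes (left) and the 15 largest rises and 15 largest falls among kept genes; points at the left edge of the middle and right panels hold 0 counts. In wde and egg both knockdown points lie between the controls. The genes of the other 2 panels were picked among genes whose sets do not overlap, which held for 65.3% of all genes tested.

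The genes of germ cell differentiation split. Of 17 tested, 7 fell and 2 rose, with 4 falls and both rises kept, and the median was -0.73. It was -0.90 against control 2 alone and -0.18 against control 1 alone. With ribosomal protein scaling it was 0.026, so its sign depends on the scaling. It lay below the median of all genes with both scalings, which was 0.75 with ribosomal protein scaling and -0.011 with TMM. The falls numbered 4 without wde GKD 1. otu, needed for cyst formation and oocyte growth, stood at 16.4, 53.7, 256 and 575 CPM (-3.57 ± 0.56, adjusted p = 0.00118). orb, an RNA-binding protein of the oocyte, stood at 80.7, 166, 481 and 1295 CPM (-2.85 ± 0.52, adjusted p = 0.00257). bam, the switch from stem cell daughter to differentiating cyst, stood at 1.97, 7.60, 20.7 and 27.7 CPM, with both knockdown libraries below the controls (-2.34 ± 0.56, adjusted p = 0.0107). The call of bam ended without wde GKD 1 (adjusted p = 0.0512, and 0.00185 to 0.147 over all settings). The members that rose were Rbp9, an RNA-binding protein at 131, 116, 14.4 and 28.5 CPM (2.52 ± 0.33), and bgcn, the partner of Bam, at 11.5, 13.3, 2.44 and 3.25 CPM (2.11 ± 0.46). Rbp9 is also expressed in neurons, and the part of neuronal RNA in its rise was not tested.

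In the full fit, calls among meiosis, cell cycle and piRNA genes were all falls, and fewer genes were called with ribosomal protein scaling. Against control 1 alone, some meiosis, anaphase-promoting complex and piRNA genes were called higher. Of 25 tested genes of the synaptonemal complex and meiosis, 10 fell and 0 rose, with a median of -1.02 and 6 falls kept, and 15 were not called. The median was -0.95 against control 2 alone and -0.79 against control 1 alone. With ribosomal protein scaling 4 fell. mtrm, which holds meiosis in the oocyte by binding Polo, stood at 5.73, 13.1, 123 and 112 CPM (-3.64 ± 0.40, adjusted p = 0.000337). c(2)M, a lateral element protein of the synaptonemal complex, stood at 3.59, 7.43, 26.6 and 43.8 CPM (-2.68 ± 0.41), and the kinesin-like nod at 6.33, 4.24, 30.2 and 35.4 CPM (-2.63 ± 0.38). No knockdown library reached a control library in these 3 genes, and the sets were apart, in either direction, in 65.3% of all genes tested.

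APC7, which belongs to the anaphase-promoting complex, stood at 4.02, 3.98, 127 and 152 CPM (-5.12 ± 0.43, adjusted p = 9.97e-05), and cort, the female-specific activator of that complex, at 1.80, 4.16, 27.5 and 24.0 CPM (-3.11 ± 0.43). These were the kept falls of the complex, whose median was -0.87 and -0.91 against control 2 and control 1 alone. Of its 13 tested members 8 fell and 0 rose (median -1.04), but 2 did without wde GKD 1 and 4 without wde GKD 2. The 24 tested replication and cell cycle genes had a median of -1.54, and -1.26 and -1.45 against control 2 and control 1 alone. Of these genes 22 fell, 0 rose and 9 falls were kept. This count was 10 without wde GKD 1 and 2 with ribosomal protein scaling. CycB, the mitotic cyclin that is stored in the oocyte, stood at 104, 206, 1301 and 1853 CPM (-3.35 ± 0.42), and the mitotic phosphatase stg at 62.6, 59.8, 178 and 301 CPM (-1.97 ± 0.39).

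The piRNA pathway silences transposons in the germ line, and 18 of its 31 tested genes fell, 0 rose and 11 falls were kept. Its median was -1.20, and -1.18 and -1.24 against control 2 and control 1 alone. Without wde GKD 1, 11 fell, and with ribosomal protein scaling 2. rhi, the HP1 relative that licenses piRNA clusters, stood at 4.62, 5.30, 42.7 and 47.7 CPM (-3.18 ± 0.33, adjusted p = 0.00026). Boot, which exports cluster transcripts, stood at 22.3, 38, 144 and 242 CPM (-2.68 ± 0.35), and mael, a nuage protein, at 26, 32.3, 164 and 170 CPM (-2.52 ± 0.29). piwi, also expressed in somatic ovary cells, stood at 209, 246, 227 and 557 CPM and was not called (-0.79 ± 0.40, adjusted p = 0.142). fs(1)Yb, whose protein acts in somatic cells, was at 0.62 and was not called.

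Most nucleoporin genes and a minority of heterochromatin genes were called lower, and these calls depended on single libraries. Of 21 tested genes for H3K9 methylation and heterochromatin, 7 fell, 0 rose and none was kept, with a median of -0.70. The median was -0.88 against control 2 alone and 0.093 against control 1 alone. With ribosomal protein scaling it was -0.038, where the median of all genes was 0.75. The count of falls was 0 without wde GKD 1, 3 without wde GKD 2 and 11 without NGVP16 control 1. G9a, another H3K9 methyltransferase, stood at 76.8, 106, 188 and 528 CPM (-1.97 ± 0.46, adjusted p = 0.00821). Su(var)3-9, the H3K9 methyltransferase of pericentric chromatin, stood at 9.49, 12.9, 31.4 and 40.0 CPM (-1.67 ± 0.34, adjusted p = 0.00473), and the HP1 family gene HP1c at 8.04, 11.4, 28.7 and 20.4 CPM (-1.33 ± 0.31, adjusted p = 0.00753). These 3 calls ended without wde GKD 1, and that of Lhr, a heterochromatin protein at -1.91 ± 0.58, ended without wde GKD 1, wde GKD 2 or NGVP16 control 1. Su(var)3-9 shares exons with eIF2gamma on the same strand, so its counts may include reads of that gene.

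Of the 29 nucleoporin genes tested, which include Nup154, 22 fell and 0 rose, with a median of -1.22 and 5 falls kept. The medians against control 2 and control 1 alone were -1.24 and -1.0. The count was 6 without wde GKD 1, 14 without wde GKD 2, 0 with ribosomal protein scaling and 29 with the length trend removed. Nup50, which takes part in nuclear import, stood at 63.3, 78.3, 260 and 219 CPM (-1.76 ± 0.27, adjusted p = 0.00102). Nup54, of the central channel, stood at 25.7, 33.9, 105 and 89.8 CPM (-1.71 ± 0.27), Nup43 at 11.1, 11.7, 54.2 and 34.5 CPM (-1.96 ± 0.34), and Rae1, an mRNA export factor, at 28.1, 38.5, 121 and 86.3 CPM (-1.63 ± 0.31). In these 4 genes the sets did not overlap, which held for 65.3% of all genes tested.

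In a list of copies of ribosomal and translation factor genes, written to hold germline copies, members moved in both directions. Of 24 in the files, 18 passed the filter on low counts, 8 of those rose (7 kept) and 4 fell (0 kept). The median over the 18 was 1.42. gNacalpha, a germline copy of a nascent-chain binding subunit, stood at 67.8, 100, 2.18 and 0.417 CPM (6.11 ± 0.62, adjusted p = 0.000213). RpL22-like, which duplicates RpL22, stood at 17.4, 11.6, 0 and 0.417 CPM (5.82 ± 0.70, adjusted p = 0.000453). RpS19b, the germline paralog of RpS19a, stood at 15.1, 14.7, 3.98 and 2.84 CPM (2.13 ± 0.43, adjusted p = 0.00389), and 2.51 and 1.91 against control 2 and control 1 alone. RpS10a, a copy of RpS10b, stood at 13.9, 12.7, 3.08 and 2.42 CPM (2.27 ± 0.38). eIF3f2 had 0 counts in the control pair and was at least 6.59-fold higher, and eIF4E3, with 1 count there, was higher by a ratio of 85.1 (exact 95% interval 14.9 to 3394). All knockdown values of the genes named here were above all control values. The sets were apart, in either direction, in 65.3% of all genes tested.

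The 4 listed members that fell were RpS5b, RpL24-like, RpS14b and RpL34a. Whether RpL24-like, RpS14b and RpL34a are germline copies was not examined here. RpS5b, the ovary-enriched paralog of RpS5a, stood at 139, 272, 1553 and 639 CPM (-2.41 ± 0.48, adjusted p = 0.0045), and its call ended without wde GKD 1 (adjusted p = 0.0515, and 2.76e-05 to 0.0734 over all settings). None of the 4 was called lower without wde GKD 1, and 2 were called without wde GKD 2 and as many without NGVP16 control 1. The ribosomal protein genes as a whole differed between the controls. Of the 80 tested cytoplasmic ribosomal protein genes 11 fell and 2 rose (median -1.20). Against control 2 alone the median was -0.11, with 2 called lower, and against control 1 alone 78 were called lower. Without wde GKD 1 or 2 the falls numbered 0 and 1. RpS19a stood at 703, 879, 2882 and 953 CPM (-1.28 ± 0.47, adjusted p = 0.0575). The nearly identical copies in this group, such as RpS14a and RpS14b, share reads that the counting could have split, so their values are uncertain.

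**Figure D2:**
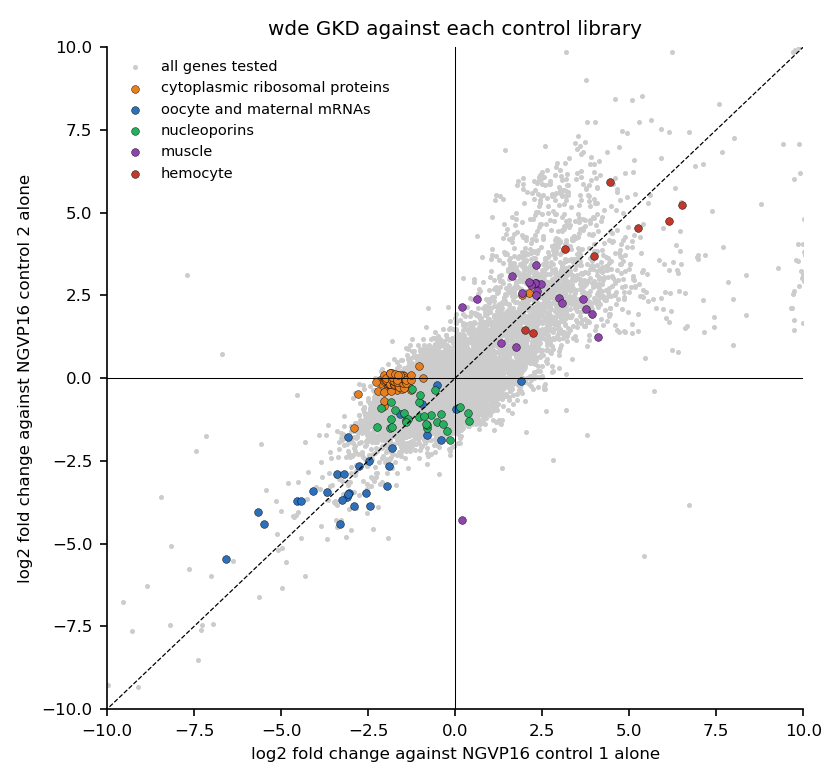
Log2 fold change of wde GKD against NGVP16 control 1 alone (horizontal) and against control 2 alone (vertical) for the 7561 genes whose higher set mean was at least 10 CPM; 94 lie outside the axes and the dashed line marks equal values. Ribosomal protein genes (orange) centre near 0 against control 2 and below -1 against control 1, whereas most maternal mRNAs (blue) and most muscle and hemocyte genes (purple, red) lie on the same side of 0 against both; nucleoporin genes are green.

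No testis gene was called higher. Of 25 genes of the male germ line in the files 11 passed the filter, 0 rose and 1 fell in edgeR, with a median of 0.62. At an unadjusted p under 0.05 these were 3 higher and 2 lower, and DESeq2 called 2 higher and 1 lower. The member that fell was twe, the meiotic phosphatase of both sexes, at 5.90, 11.6, 30.7 and 39.2 CPM (-2.0 ± 0.34). Phf7, a chromatin reader of the male germ line, stood at 23.3, 26.5, 35.2 and 35.2 CPM and was not called (-0.50 ± 0.33, adjusted p = 0.256). Its log2 fold change was 0.33 with ribosomal protein scaling, where the median of all genes was 0.75. blanks, which encodes a double-stranded RNA binding protein of the testis, stood at 30.2, 8.58, 6.94 and 0.918 CPM. Its wde GKD 2 value was close to NGVP16 control 1, and the test was not passed (2.35 ± 0.83, adjusted p = 0.0557, and 0.00531 to 0.353 over all settings).

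Eggshell genes, made late by follicle cells, held the largest falls. All 11 chorion genes fell and 8 falls were kept, with a median of -7.35, which is -6.78 when Cp16 is set at its bound. Against control 2 and control 1 alone the median was -5.99 and -7.46. Cp36, a main chorion protein, stood at 0.257, 0.707, 601 and 127 CPM (-9.53 ± 0.99, adjusted p = 0.000204). Cp38, another of the chorion proteins, stood at 0.171, 1.86, 759 and 120 CPM (-8.75 ± 1.21, adjusted p = 0.00103), and Cp7Fc at 0.513, 0.442, 82.6 and 197 CPM (-8.16 ± 0.90). Cp16 had 0 counts in both wde GKD libraries against 34.3 and 1.42 CPM, at least 110-fold lower. The control libraries differed by more than 4-fold in several of these genes, but neither wde GKD library reached either control. Sets were apart, in either direction, in 65.3% of all genes tested. Cp36, Cp38, Cp7Fb and Cp7Fc lie within the span of CG33223 on the opposite strand.

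Vitelline membrane genes fell less evenly: 6 of 10 were called lower, 0 higher and 4 falls were kept, with a median of -3.28. Vm26Ac stood at 0, 0.265, 42.3 and 27.5 CPM, with 3 counts in wde GKD 2, lower by a ratio of 256 (exact 95% interval 87.1 to 1243). fs(1)N stood at 11.6, 33.0, 236 and 553 CPM (-4.15 ± 0.57), and clos at 14.5, 64.5, 388 and 839 CPM (-3.96 ± 0.66). Without wde GKD 2 all 10 members were called lower with a median of -5.91, and without wde GKD 1 the median was -2.46. Muc4B, Obp19c and Fcp3C were also among the 15 largest falls, at -7.03 ± 1.24, -5.90 ± 0.76 and -5.48 ± 0.75. zyd, a calcium exchanger, stood at 3.76, 2.03, 99.6 and 116 CPM (-5.21 ± 0.41, adjusted p = 9.97e-05).

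The yolk genes showed no common direction. yl, the receptor by which the oocyte takes up yolk, stood at 66.3, 181, 1329 and 2623 CPM (-4.0 ± 0.56, adjusted p = 0.000827) and was the kept fall among 6 tested genes. Yp3, a yolk protein made by follicle cells and fat body, stood at 551, 1193, 383 and 233 CPM and was called higher (1.5 ± 0.53, adjusted p = 0.0485). That call ended without either control, without wde GKD 2 and with the virgin pair as control, where Yp3 was at -1.34 (adjusted p over all settings 0.00692 to 0.308). Yp1 and Yp2 stood at 413 and 805 CPM in wde GKD 1, 1190 and 2897 in wde GKD 2, 754 and 2087 in control 1 and 397 and 1786 in control 2, with the sets overlapping.

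Most germarium niche genes were called higher, and fewer follicle cell genes were. Of 12 tested germarium niche genes, which mark the cap, escort and terminal filament cells around the stem cells, 10 rose, 0 fell and 6 rises were kept, beside 17.7% and 8.93% of all genes. The median was 1.85, and 1.77 and 2.53 against control 2 and control 1 alone. Without wde GKD 1, 6 were called. Con, a cell adhesion protein, stood at 68.2, 35.6, 1.93 and 5.17 CPM (3.84 ± 0.53, adjusted p = 0.00081). bab2, a transcription factor of terminal filaments, stood at 110, 66.1, 7.07 and 10.8 CPM (3.29 ± 0.35), and dpp, the BMP signal to the stem cells, at 108, 78.8, 15.9 and 18.1 CPM (2.45 ± 0.35). The signal hh was called as well (2.94 ± 0.71), though not without wde GKD 1. Con contains other genes on the same strand, and its counts may include theirs.

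Of 19 follicle cell genes 6 rose, 0 fell and 4 rises were kept, with a median of 0.66. Against control 2 alone the median was 0.32, with 2 members called lower, and against control 1 alone it was 1.44, with 11 called higher. Fas3, an adhesion protein of young follicle cells and polar cells, stood at 546, 556, 49.1 and 74.1 CPM (3.16 ± 0.32, adjusted p = 0.000211). kay, the Fos transcription factor, stood at 423, 395, 49.6 and 96.6 CPM (2.48 ± 0.35), cas at 48.7, 41.0, 8.35 and 10.4 CPM (2.25 ± 0.36) and ct at 160, 166, 24.2 and 65.4 CPM (1.86 ± 0.42). tj, a marker of the somatic gonad, stood at 172, 264, 244 and 300 CPM and was not called (-0.31 ± 0.31, adjusted p = 0.446). The labelled tissue was present by these markers in all 4 libraries, and the germ line markers otu and orb were above 10 CPM in each, while vas and nos were not analysed here.

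Basement membrane genes rose in 7 of 11 cases, with 0 falls and 4 rises kept (median 1.75). The count was 4 without wde GKD 1 and 11 without NGVP16 control 2. Ppn, a matrix protease relative, stood at 3267, 1955, 187 and 569 CPM (2.79 ± 0.56, adjusted p = 0.0048), and SPARC, which binds collagen IV, at 554, 448, 192 and 106 CPM (1.75 ± 0.36). Col4a1, a collagen IV chain, stood at 3934, 2302, 1011 and 2521 CPM, with wde GKD 2 below control 2, and was not called. Of 15 genes of ecdysone synthesis and response 2 rose and 1 fell, smaller shares than the 17.7% and 17.4% of all genes. Their median of 0.067 turned to -0.32 with the length trend removed, where the median of all genes was -0.25. Cyp18a1, which inactivates ecdysone, stood at 68.6, 116, 25.4 and 24.4 CPM (1.89 ± 0.32, adjusted p = 0.00178). Eip75B (1.58 ± 0.52, adjusted p = 0.0355) lost its call without wde GKD 1 or 2 (adjusted p = 0.0784 and 0.135, and 0.00065 to 0.278 over all settings).

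**Figure D3:**
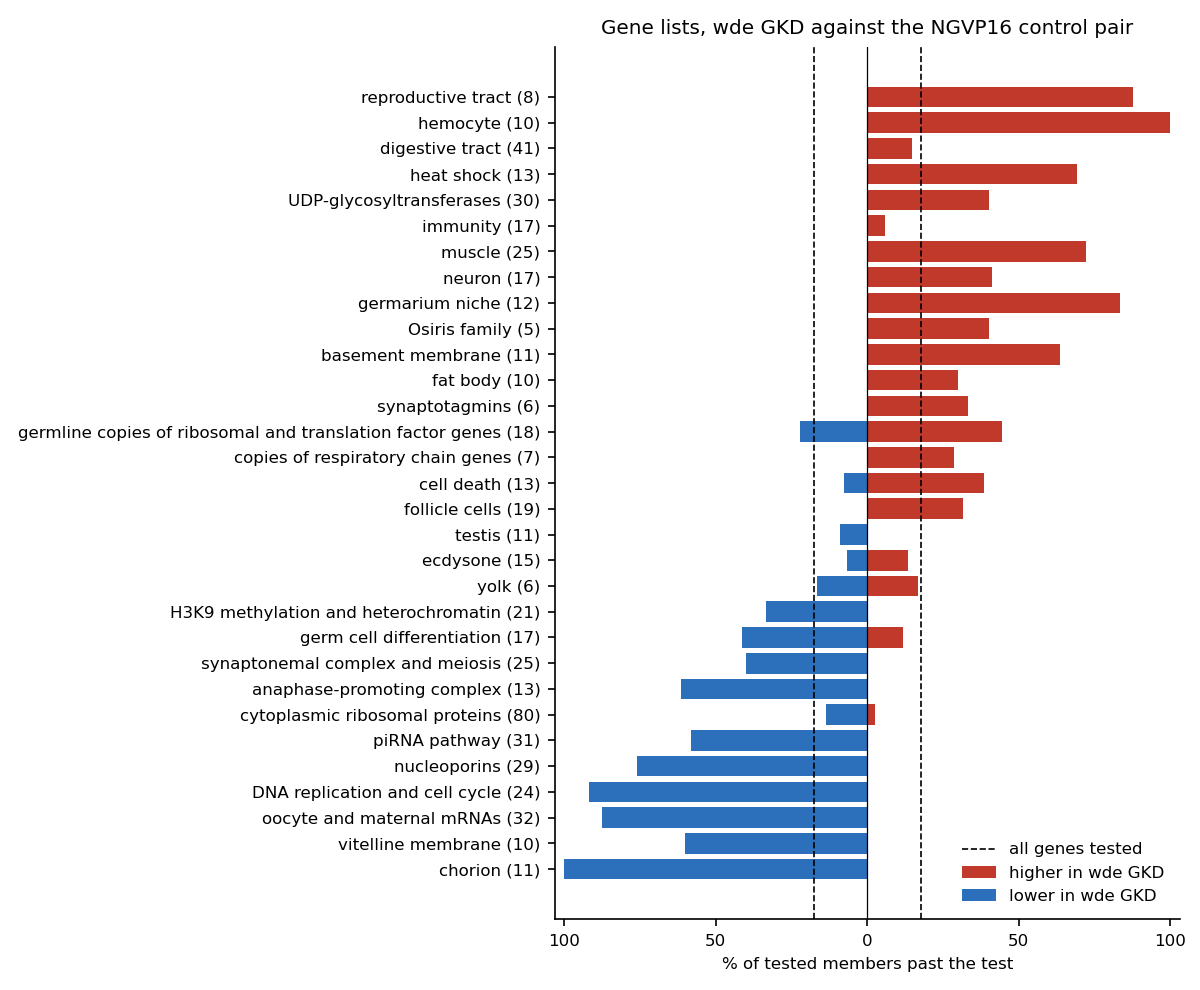
Share of the tested members of each gene list that passed the test as higher (red, to the right) or lower (blue, to the left) in wde GKD against the NGVP16 pair, in percent, with the number tested in brackets; 1 list with fewer than 5 tested members is not drawn. The dashed lines are the shares over all genes tested, 17.7% higher and 17.4% lower; chorion (all 11 lower) and hemocyte genes (all 10 higher) lie at the ends.

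Muscle genes, which mark the contractile sheath of the ovary, rose in 18 of 25 cases, with 0 falls, 13 rises kept and a median of 2.40. They took 2.79% and 2.57% of the counts in wde GKD and 0.438% and 0.526% in the controls. In the SETDB1 GKD and Nup154 GKD libraries of the series they took 2.57% to 3.28%. Mhc, the myosin heavy chain, stood at 3670, 3223, 273 and 716 CPM (2.80 ± 0.47, adjusted p = 0.00166). Prm, a thick filament protein, stood at 877, 824, 108 and 172 CPM (2.60 ± 0.31), Act57B, an actin, at 5034, 5024, 1158 and 741 CPM (2.40 ± 0.39), and Mlp84B at 168, 159, 32.8 and 16.6 CPM (2.73 ± 0.36). The part of sheath RNA in the changes of other genes was not tested.

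All 10 hemocyte genes rose and 9 rises were kept, with a median of 4.84. They took 0.287% and 0.257% of the counts in wde GKD and 0.0139% and 0.0256% in the controls, with 0.38% and 0.365% in Nup154 GKD and 0.187% and 0.14% in SETDB1 GKD. Pxn, a peroxidasin of blood cells and basement membranes, stood at 1035, 1172, 12.2 and 32.2 CPM (5.63 ± 0.50, adjusted p = 0.00012). Hml, a clotting protein of hemocytes, stood at 663, 350, 7.20 and 20.5 CPM (5.18 ± 0.64), and NimC1, a phagocytic receptor, at 170, 140, 9.76 and 13.2 CPM (3.75 ± 0.30). Sr-CIV, a scavenger receptor, stood at 17.1 and 21.0 CPM in wde GKD and had 0 counts in both controls, at least 125-fold higher. PPO2, the crystal cell prophenoloxidase, stood at 52.6, 69.6, 2.83 and 1.08 CPM (5.01 ± 0.60). No hemocyte gene in the list overlapped between the sets, which were apart, in either direction, in 65.3% of all genes tested. The part of these cells in the rises of Pxn and other matrix genes was not tested.

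Most reproductive tract genes and a minority of neuron genes rose. Of 8 reproductive tract genes 7 rose and 6 rises were kept. The median was 4.98, or 3.16 with the 4 genes that had 0 counts in the control pair set at their bounds. Mmp2, a matrix protease of ovulation, stood at 197, 170, 11.4 and 27.7 CPM (3.22 ± 0.46). The octopamine receptor genes Octbeta2R, at 63.0, 49.0, 5.40 and 9.34 CPM (2.91 ± 0.36), and Oamb, at 23.9, 24.9, 4.75 and 3.00 CPM (2.66 ± 0.38), also rose. The spermatheca genes Send1 and Send2 and the sex peptide receptor gene SPR had 0 counts in the controls and were at least 34.1-fold, 35.8-fold and 51.0-fold higher.

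Of 17 neuron genes 7 rose, 10 were not called and 4 rises were kept, with a median of 2.30 (2.1 with ChAT at its bound), and 4 were called without wde GKD 1. The median was 1.92 against control 2 alone and 4.67 against control 1 alone. elav, the pan-neuronal RNA-binding protein, stood at 76.4, 70.2, 11.9 and 26.6 CPM (1.92 ± 0.35, adjusted p = 0.00263). Syt4, a synaptotagmin of vesicle release, was among the largest rises, at 49.9, 57.9, 0.257 and 0.501 CPM (7.05 ± 0.58, adjusted p = 0.000131), and Sytalpha stood at 15.8, 27.8, 1.03 and 1.92 CPM (3.85 ± 0.47). They were the called members of 6 tested synaptotagmin genes, of which the other 4 were not called. Over the list the neuron genes summed to 0.0355% and 0.0223% of the counts in wde GKD and 0.00298% and 0.0112% in the controls.

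Heat shock and cell death genes differed from member to member. Of 13 tested heat shock genes 9 rose, 0 fell and 7 rises were kept (median 3.40, or 3.35 with Hsp70Bbb at its bound). Hsp68, an inducible chaperone, stood at 290, 285, 13.4 and 14.5 CPM (4.36 ± 0.34, adjusted p = 0.000101). Hsp70Bb stood at 73.2, 32.8, 0 and 1.00 CPM (6.50 ± 0.82, adjusted p = 0.00061). In the virgin pair, however, Hsp70Bb stood at 83.7 and 157 CPM, and against that pair the log2 fold change was -1.18 (adjusted p = 0.127, and 1.9e-17 to 0.127 over all settings). The Hsp70 copies are nearly identical, so reads could have been split among them. Hsp83, the constitutive Hsp90, stood at 1900, 2677, 3684 and 5874 CPM and was not called (-1.06 ± 0.39, adjusted p = 0.0527).

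Of 13 cell death genes 5 rose and 1 fell, with 2 rises kept and a median of 0.73. The rises numbered 3 without wde GKD 1 and 2 without wde GKD 2. egr, the TNF ligand, stood at 116, 123, 27.2 and 21.9 CPM (2.28 ± 0.27, adjusted p = 0.00033), and Buffy, a Bcl-2 relative, at 19.9, 24.0, 4.50 and 2.42 CPM (2.68 ± 0.67). The proapoptotic gene hid stood at 36.3, 58.6, 10.7 and 21.1 CPM (1.57 ± 0.39, adjusted p = 0.0107; 0.0812 without wde GKD 2, and 7.05e-05 to 0.127 over all settings). Dcp-1, an effector caspase, fell from 97.9 and 109 CPM to 34.6 and 49.4 (-1.30 ± 0.27, adjusted p = 0.00492), and this call ended without wde GKD 1 (adjusted p = 0.0708, and 0.000121 to 0.562 over all settings).

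Among UDP-glycosyltransferases, enzymes that conjugate small lipophilic molecules, 12 of 30 tested rose, 0 fell and 8 rises were kept, with a median of 2.77. Ugt37B1 stood at 18.9 and 16.2 CPM in wde GKD and had 0 counts in the controls, at least 116-fold higher. Ugt301D1 stood at 202, 218, 19.3 and 8.59 CPM (3.92 ± 0.47, adjusted p = 0.000453), and Ugt49C1 at 26.2, 23.7, 0.385 and 1.17 CPM (4.92 ± 0.53). Osi19, of the Osiris family of cuticle-forming cells, stood at 13.3, 91.9, 0 and 0.167 CPM, higher by a ratio of 513 (exact 95% interval 142 to 4241). Its wde GKD 2 value was well above that of wde GKD 1, and both were above the controls. ATPsynepsilonL, a copy of an ATP synthase subunit gene, stood at 15.7, 34.3, 0 and 0.417 CPM (6.63 ± 0.86, adjusted p = 0.00062). The remaining large rises were the amino acid transporter gene NAAT1 (6.25 ± 1.24), Hsp70Ba (5.88 ± 0.62), drm (5.72 ± 0.87), ckd (5.66 ± 0.60), the leucokinin receptor gene Lkr (5.64 ± 1.02) and stol (5.59 ± 0.40).

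The wde GKD libraries differed from each other in eggshell and digestive genes. Of the 217 genes over 4-fold apart between them, 191 were higher in wde GKD 1 and 26 in wde GKD 2, and with 1 library on each side there is no test. Of the 8 vitelline membrane genes with at least 10 CPM, 6 were over 4-fold higher in wde GKD 2. Vm26Aa, a structural vitelline membrane protein, stood at 21.1 and 549 CPM in wde GKD 1 and 2 (a ratio of 0.038, exact 95% interval 0.034 to 0.044) and at 1916 and 807 CPM in the controls. Vm26Ab stood at 13.7 and 356 CPM, Vm34Ca at 7.70 and 342 CPM and Vml at 3.34 and 137 CPM. In wde GKD 2 these 4 genes lay below both controls, and none was called against the NGVP16 pair. The chorion gene dec (128 and 266 CPM) and fs(1)M3 (19.5 and 75.1 CPM) differed by less and were called lower. All exact intervals and bounds given here cover counting error alone, because molecules were not tagged.

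Digestive enzyme genes ran the other way. Of the 31 digestive tract genes with at least 10 CPM, 24 were over 4-fold higher in wde GKD 1 and 1 in wde GKD 2, and the list took 0.328% of the counts in wde GKD 1, 0.0677% in wde GKD 2 and 0.0403% and 0.0696% in the controls. In the SETDB1 GKD pair the list was also uneven, at 0.456% and 0.0351%. LManVI, an alpha-mannosidase, stood at 662 and 28.6 CPM (ratio 23.2, exact 95% interval 20.7 to 26) and had 0 counts in the controls. LManV stood at 256 and 13.3 CPM and Jon25Biii, a serine protease, at 183 and 6.90 CPM. Mal-A2, a maltase, was higher in wde GKD 1 by a ratio of 23.6 (17.7 to 32.1). By contrast, LManII stood at 457 and 331 CPM and Mal-A5 at 143 and 95.9 CPM, with 149 to 237 CPM and 142 to 231 CPM in the controls. Against the NGVP16 pair 6 of 41 tested digestive genes were called higher, a smaller share than the 17.7% of all genes, and none was kept. The count was 0 without wde GKD 1, 1 without NGVP16 control 1 and 2 without NGVP16 control 2, where 2 were called lower. The called genes included zetaTry, LManIII, Mal-A3 and Jon99Fi. Copies in the Jonah and trypsin clusters are similar enough that reads could have been split.

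Many immunity genes and some fat body genes were also higher in wde GKD 1. Of 13 immunity genes with at least 10 CPM, 8 were over 4-fold higher in wde GKD 1, and the list took 0.171% and 0.0443% of the counts in wde GKD 1 and 2 and 0.0259% and 0.021% in the controls. Mtk, an antimicrobial peptide, stood at 38.6, 2.39, 1.28 and 1.33 CPM and was the member of 17 called higher (3.95 ± 1.35, adjusted p = 0.0472). Its call ended without wde GKD 1 (adjusted p = 0.651, and 0.00454 to 0.651 over all settings) and without either control, and without wde GKD 2 the list had 4 calls. Of 10 fat body genes 3 rose (2 kept), and 5 did without wde GKD 2. apolpp, the main lipid carrier of the hemolymph, stood at 956, 1507, 31.1 and 69.3 CPM (4.61 ± 0.70, adjusted p = 0.000987), and Lsd-1, a lipid droplet protein, at 95.1, 94.7, 24.3 and 24.7 CPM (1.95 ± 0.34). The larval serum protein gene Lsp1gamma and the fat body gene Fbp1 were higher in wde GKD 1, at 105 and 290 CPM. They stood at 21.6 and 78.2 CPM in wde GKD 2, where they lay within the control values. Of the 217 genes that differed between the wde GKD libraries, 45 (20.7%) were called against the NGVP16 pair and 4 were kept. The share was 35.2% over all genes tested, but the 217 came from genes with at least 10 CPM. They were also picked for a wide spread within wde GKD, which lowers the share called, so no conclusion is drawn from it.

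**Figure D4:**
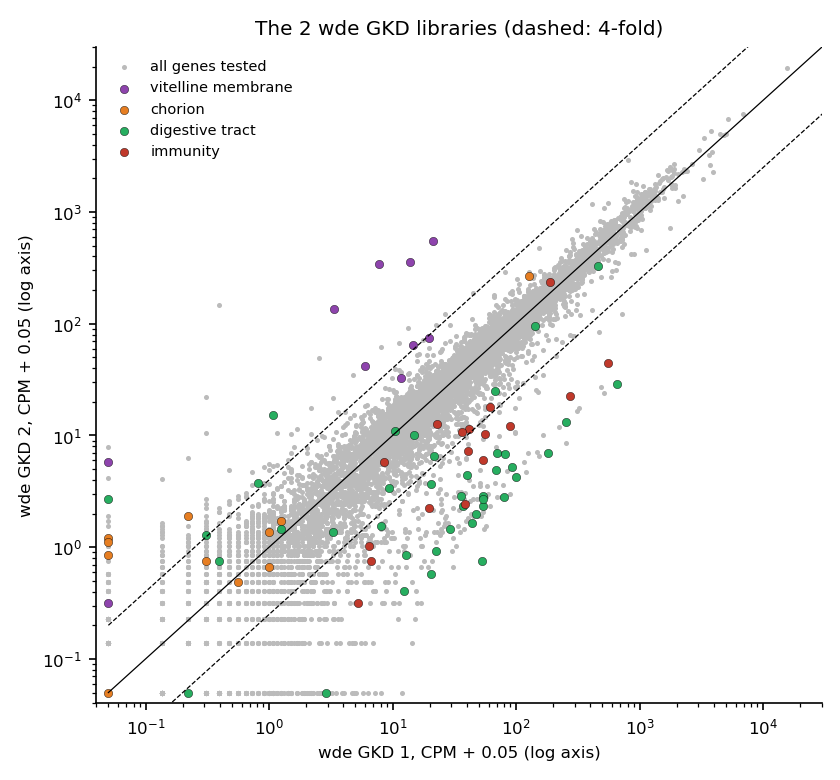
CPM plus 0.05 of each gene tested in wde GKD 1 (horizontal) and wde GKD 2 (vertical), both on log axes, with the solid line at equal values and the dashed lines at 4-fold. Most vitelline membrane genes (purple) lie above the upper dashed line, most digestive tract genes (green) and many immunity genes (red) lie below the lower one, and chorion genes (orange) are under 2 CPM in both libraries except for dec.

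By chromosome, 21 of 90 tested genes of chromosome 4, much of which is heterochromatic, were higher (23.3%) and 2 were lower (2.22%), with a median of 0.46, and 0.48 and 1.06 against control 2 and control 1 alone. On the X chromosome 14.2% of 1840 genes were higher and 20.2% lower, and the median of -0.17 became -0.040 against control 2 alone and 0.099 against control 1 alone. On the other major arms the shares were 17.4% to 20.1% higher and 16.2% to 18.3% lower, with medians of 0.040 to 0.17 against control 2 alone and 0.21 to 0.34 against control 1 alone. No test of a chromosome against the others was run.

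The test against the other knockdowns called fewer genes than that against NGVP16, and the number depended on the tool. Against SETDB1 GKD, the knockdown of the enzyme that Wde assists, 27 genes were called (0.25% of those tested; 14 higher, 0.13%, and 13 lower, 0.12%), 1387 were at an unadjusted p under 0.05, and 8 remained called with each wde library left out in turn. The count was 8 without wde GKD 2, 130 without SETDB1 GKD 1 and 14 without SETDB1 GKD 2, and DESeq2 called 537. RpL22-like was lower in wde GKD, at 17.4 and 11.6 CPM against 187 and 124 in SETDB1 GKD (-3.42 ± 0.52, adjusted p = 0.0301). rhi was also lower, against 19.2 and 26.6 CPM (-2.21 ± 0.32, adjusted p = 0.0258), and Ugt301D1 was higher, against 36.8 and 17.3 CPM (2.95 ± 0.45, adjusted p = 0.0301). Sgp was higher, at 25.3 and 8.49 CPM against 0.784 and 0.571 (4.59 ± 0.62, adjusted p = 0.0141). The calls of RpL22-like, rhi and Ugt301D1 ended with either wde GKD library left out, that of Sgp did not, and all 4 ended without SETDB1 GKD 2.

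RpS19b, Phf7, blanks and wde had values apart in the 2 knockdowns without passing this test. RpS19b stood at 61.8 and 55.2 CPM in SETDB1 GKD, above both wde GKD libraries (-1.98 ± 0.41, adjusted p = 0.0782). Phf7 stood at 101 and 76.9 CPM there (-1.84 ± 0.34, adjusted p = 0.0589), and blanks at 100.3 and 168 CPM (-2.79 ± 0.81, adjusted p = 0.193). wde itself stood at 217 and 192 CPM in SETDB1 GKD, above all 4 wde GKD and NGVP16 libraries (-1.45 ± 0.45, adjusted p = 0.195).

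Against Nup154 GKD, the developmental control, 180 genes were called (1.67%; 108 higher, 1%, and 72 lower, 0.667%), 1879 were at an unadjusted p under 0.05, and 14 remained called with each wde library left out in turn. The count was 19 without wde GKD 1, 55 without wde GKD 2, 2 without Nup154 GKD 1 and 0 without Nup154 GKD 2, and DESeq2 called 899. ATPsynepsilonL was higher in wde GKD, against 3.28 and 1.75 CPM in Nup154 GKD (3.31 ± 0.68, adjusted p = 0.0437), a call that ended with either wde GKD library left out. stol, which takes part in calcium channel function, was lower, at 19.3 and 16.5 CPM against 152 and 166 (-3.15 ± 0.30, adjusted p = 0.00434), as was the receptor subunit gene nAChRalpha3, at 2.22 and 1.41 CPM against 13.5 and 12.4 (-2.82 ± 0.34). In the fat body list 4 of 10 genes were higher than in Nup154 GKD. Among them were Fbp1, at 290 and 78.2 CPM against 0.41 and 0.318 (8.94 ± 0.97), and Lsp1gamma, at 105 and 21.6 CPM against 0.164 and 0.239. The NGVP16 controls stood at 69.8 and 99.5 CPM for Fbp1 and 15.3 and 27.7 CPM for Lsp1gamma, far above Nup154 GKD. Neither gene was called in wde GKD against NGVP16 (edgeR adjusted p = 0.196 and 0.154). The calls of the genes named in this comparison ended with either Nup154 GKD library left out. RpS19b stood at 29.9 and 26.7 CPM in Nup154 GKD, above both wde GKD values (-0.93 ± 0.40, adjusted p = 0.257). In Nup154 GKD the levels of gNacalpha were 14.2 and 21.2 CPM, below both wde GKD values (2.25 ± 0.49, adjusted p = 0.0539). These comparisons share the wde GKD libraries with the comparison against NGVP16.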

How the data were processed

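The authors deposited a file of raw read counts for each library, whole numbers by FlyBase identifier and not normalized. Per the labels' protocols, RNA was selected on poly(A) beads and prepared with a directional kit. Per the submitters' processing notes, HISAT2 2.1.0, featureCounts 1.4.6, DESeq2 1.24.0 and the build dm6 were used. The annotation release and strand setting were not stated there. Symbols and positions came from Ensembl's BDGP6 annotation, which has dm6 coordinates. It named 16647 of 17023 identifiers; the other 376 were tested but not named, and they held 5.95% to 6.94% of the counts of the wde GKD and NGVP16 libraries.

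Low counts were removed with filterByExpr by set (minimum count 10, minimum total 15), which left 10790 genes. TMM factors scaled the libraries. The quasi-likelihood test of edgeR 4.0.16 (robust glmQLFit, R 4.3.3) took all 12 libraries and 1 mean for each set. The other sets therefore shared in the estimate of the spread (6 residual degrees of freedom, common biological coefficient of variation 0.38). Among them were 2 shallow adult libraries (471770 and 682565 counts), which also entered the filter and the TMM scaling. These also differed in content: RpS19a was at 0 CPM in both, and clos at 12300 and 16976 CPM. p-values were adjusted by Benjamini-Hochberg over all genes, at 0.05. The standard error is the absolute log2 fold change over the square root of F and is approximate. Where a fit left out 1 library, the lone library of its set was assumed to vary like the other sets. Sets with 0 counts were bounded at 3 counts over the set, and sets with 1 to 3 counts got an exact 95% ratio interval.

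The 4 libraries and all gene lists were chosen with earlier results of these data known. Named genes were 8 targeted and reference genes, the 15 largest rises and falls among kept genes reaching 10 CPM in the higher set without overlap, up to 4 called members of each list with at least 10 CPM, the largest kept differences between knockdowns, and the 6 highest eggshell and digestive genes in wde GKD. Noncoding RNAs and symbols made of annotation numbers do not enter the largest rises and falls. List members named outside this rule, such as those not called, were chosen after their values were seen. Alternatives were other scalings, DESeq2 1.42.0, no filter, fewer libraries, the virgin controls and a replicate block.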

Additional observations from a re-analysis of the deposited data

How the results depend on the processing

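The largest rises and falls had to be called in the 4 fits that left out 1 library, and list members so called came first. These fits are among the 14 settings tried, so the stability of the named genes does not stand for that of all called genes. Of 110 called genes named by rule for the comparison with NGVP16, 74 kept their call and direction under all 14 settings. That count leaves out wde, egg and Nup154, which are given below. It also leaves out genes named only for other comparisons or outside the rule. The 2 that changed direction under any setting were Hsp70Bb (-1.18) and Yp3 (-1.34), both with the virgin pair as control. The most calls were lost with ribosomal protein scaling (26), with a fit to the 4 libraries alone (18) and without wde GKD 1 (18), and none with DESeq2 or its size factors. Phf7 turned to 0.33, and the median of the germ cell differentiation list to 0.026, with ribosomal protein scaling. That scaling put the median of all genes at 0.75, against -0.011 with TMM. Calls against NGVP16 numbered 1558 (1120 higher, 438 lower) in the 4 libraries alone, and 1928 (1793 higher, 135 lower) with ribosomal protein scaling. With the length trend removed 3144 were lower. Leaving out 1 library gave 1559 to 4782 calls, 1062 to 2430 higher and 497 to 2352 lower. Against SETDB1 GKD the 27 calls became 537 with DESeq2, 148 with no filter, 7 with ribosomal protein scaling, 208 with the length trend removed and 8 to 130 with 1 library left out. Against Nup154 GKD the 180 became 899, 327, 13, 464 and 0 to 55 in the same order. wde was at 0.13 with ribosomal protein scaling, at -0.87 to 0.78 with 1 library left out, and at -0.89 without the adult pair and NGVP16 control 1 (adjusted p = 0.0128). egg was at 0.25 with ribosomal protein scaling, at -0.69 (adjusted p = 0.0307) with the length trend removed, at -0.68 to 0.29 with 1 library left out and at -0.71 (adjusted p = 0.0279) without the adult pair and NGVP16 control 1. Nup154 was at -1.14 (adjusted p = 0.112) in the 4 libraries alone, at -0.57 (adjusted p = 0.565) with ribosomal protein scaling and at -1.55 to -0.84 with 1 library left out. The cause of these changes was not tested, except that fits to fewer libraries have fewer degrees of freedom.

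Whether the replicate numbers in the titles pair the samples was not established, and correlations cannot decide it. Deviations of same-numbered libraries correlated at -0.17 between wde GKD and NGVP16. The correlation was 0.39 between wde GKD and SETDB1 GKD, and -0.16 between NGVP16 and SETDB1 GKD. With the replicate block, fitted to 8 libraries, 2904 genes were called against NGVP16 (1671 higher, 1233 lower), 4 against SETDB1 GKD and 9 against Nup154 GKD. A crossed pairing, added after the data were seen, gave 3236 against NGVP16 (1783 higher, 1453 lower), and the same 8 libraries with no block gave 3467. The low depth limits statements on genes at 0 counts to the bounds given.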
